A study of Mus musculus with 24 samples.

Results

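Messenger RNA of the medial frontal cortex was compared between 3 female samples carrying a Dnmt3l knock-in (OE-F 1 to 3) and 3 female controls (CON-F 1 to 3). These are 6 of the 24 samples of the study, which also holds males and small RNA libraries. All were offspring on the C57BL/6J background, taken at postnatal day 28. The CON-F genotype was labelled Emx1-cre, and the OE-F mice came from crossing that line with mice carrying a conditional Dnmt3l knock-in, so the Emx1-cre transgene belongs to both breedings. In this line the recombinase is active in the dorsal forebrain, in cortical excitatory neurons and in glia of the same lineage. Interneurons, microglia and vessel cells, which are in the same tissue, have other origins. Total RNA with an integrity number above 6.5 was depleted of ribosomal RNA and made into strand-marked libraries. The labels number the samples within a group but do not say whether each came from its own mouse, so the p-values below reflect only how these samples vary, part of which may be technical.

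DNMT3L is a relative of the de novo DNA methyltransferases that has no catalytic activity of its own. It binds DNMT3A and DNMT3B, stimulates them, and reads histone H3 tails that lack methylation at lysine 4. It is known from germ cells and early embryos, where it is needed for maternal imprints and for silencing of retrotransposons in male germ cells, and it is normally silent in adult cortex. In bulk tissue a lower value can come from fewer cells of a type or from less RNA per cell, and the 2 cannot be told apart here.

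A gene entered the test if its FPKM (fragments per kilobase of transcript, scaled to library size), summed over its transcripts, was 0.5 or more in at least 3 of the 6 libraries, which left 15103 of 36096 genes. Levels of single genes below are library-scaled counts (CPM) after TMM scaling, a scaling for library composition. They compare libraries for 1 gene and not genes with each other. Summed levels of gene groups are CPM of the library total without TMM scaling and include listed members that did not enter the test. Differences are log2(OE-F/CON-F) with their standard error from edgeR's quasi-likelihood test. The term called means a p-value under 0.05 after Benjamini-Hochberg adjustment, and "rose" and "fell" are used only for called genes.

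Library totals ran from 27074837 to 29623654 counts in CON-F and from 22144970 to 25627317 in OE-F. Several libraries differed from the rest in ways that the genotype labels do not describe. Albumin (Alb), a liver plasma protein, had 1328 and 1297 counts in CON-F 1 and 2 and at most 3 in the other 4 libraries. The Y-linked genes Uty, Ddx3y and Eif2s3y summed to 201 counts in OE-F 3 and to 18 or fewer in the other 5 libraries. The OE-F 3 level was 8.29% of the mean of the male libraries, control and knock-in together. Markers of tissue next to the medial frontal cortex also varied. The summed level of 17 striatal neuron markers was 1057, 1511 and 1666 CPM in CON-F 1 to 3 and 566, 587 and 1420 CPM in OE-F 1 to 3. The 17 listed choroid plexus and ependymal markers summed to 304, 502 and 514 CPM in CON-F and to 289, 974 and 1052 CPM in OE-F. Mitochondrially encoded genes took 3.04% to 3.59% of counts in CON-F, 3.73% in OE-F 1, 5.63% in OE-F 2 and 6.41% in OE-F 3. The part of these differences in the results below was not tested, apart from the fits that leave libraries out. Markers of cortical excitatory neurons were present in all 6 libraries: Slc17a7, the vesicular glutamate transporter of cortical neurons, measured 974 to 1432 CPM.

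Dnmt3l, the knocked-in gene, was present in every OE-F library and nearly absent from every CON-F library. Its gene, ENSMUSG00000000730, lies at chr10:78041947-78063622 of GRCm38 on the plus strand. CON-F 1 and 2 had 0 counts and CON-F 3 had 3, while OE-F 1, 2 and 3 had 1179, 532 and 600. Scaled, the OE-F libraries held 46.2, 24.4 and 25.9 CPM (32.2 ± 12.2, SD, n = 3), so OE-F 1 carried the highest level. The library-scaled ratio of the 2 groups' counts was 912, with a 95% counting interval of 312 to 4426. Dnmt3l rose by 9.67 ± 0.57 on the log2 scale with an adjusted p of 0.000561 in edgeR. An exact two-sided permutation test of 3 against 3 libraries cannot go below p = 0.1, which is the value it gave. Nearly all reads were assigned to 1 of its 8 listed transcripts, ENSMUST00000151242, which had 1179, 532 and 596.57 expected counts in OE-F.

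Dkkl1 was the other called gene and the only one that fell. It encodes dickkopf-like 1, a secreted protein best known from developing sperm, and lies at chr7:45207519-45212147 on the minus strand. CON-F 1 to 3 measured 15.3, 14.1 and 13.3 CPM (14.2 ± 0.98, SD, n = 3) and OE-F 1 to 3 measured 2.19, 1.98 and 3.41 CPM (2.53 ± 0.77). The groups lay far apart, and OE-F 1 sat between the other OE-F libraries. The log2 difference was -2.49 ± 0.23, with an edgeR adjusted p of 0.0128. The call depends on which libraries are in the fit. It held without OE-F 1 (edgeR adjusted p 9.19e-06), OE-F 3 (0.00729) or CON-F 3 (0.0499). The edgeR adjusted p was 0.117 without CON-F 1, 0.119 without CON-F 2, 0.0569 without OE-F 2 and 0.344 without both CON-F libraries that hold Alb, while the log2 difference stayed between -2.54 and -2.35 with any 1 library left out except OE-F 3 (-2.77).

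These 2 calls are 0.0132% of the genes tested, 0.00662% in each direction, and 1685 higher and 1549 lower genes had an unadjusted p under 0.05 in edgeR. DESeq2, another count test, called 190 higher and 167 lower (1.26% and 1.11%, 2.36% together). OE-F 1 decided the count. Without it edgeR called 3265 genes higher and 3579 lower, or 21.6% and 23.7% of genes and 45.3% together, while leaving out any of the other 5 libraries gave at most 1 higher and 3 lower. The first principal component, with 43.4% of the variance of log2 CPM, put the CON-F libraries at -21.5, -28.4 and -30.8 and OE-F 1 next to them at -15.4. OE-F 2 and 3 stood at 50.4 and 45.7. OE-F 1 was set apart from all others on the second component, at 43.5. The median absolute log2 difference from the CON-F mean, over all genes, was 0.14 in OE-F 1, 0.40 in OE-F 2 and 0.39 in OE-F 3. Each CON-F library differed from the mean of the other 2 by 0.12 to 0.14. By this measure OE-F 1 was about as far from the controls as the controls were from each other. The 2 distances are not quite alike, since a mean of 3 libraries varies less than a mean of 2. Whether the distance of OE-F 1 is tied to its Dnmt3l level, the highest in OE-F, was not tested.

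**Figure D1:**
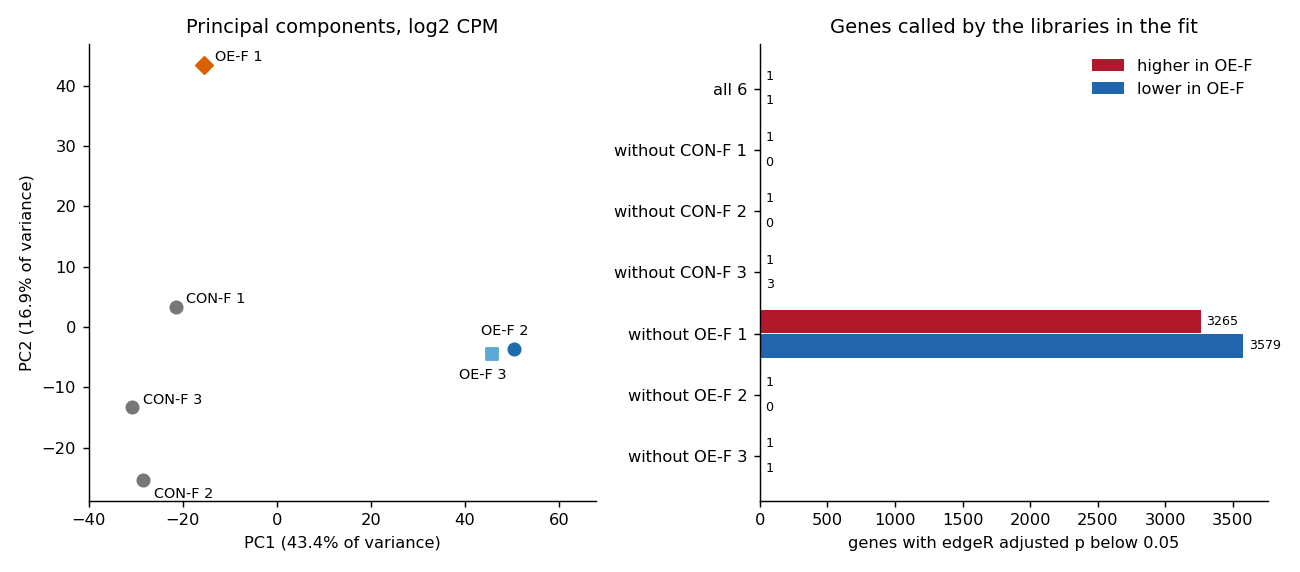
Left: the first 2 principal components of log2 CPM over all genes tested, 1 point per library, with OE-F 1 close to the CON-F libraries on the horizontal axis and OE-F 2 and 3 at 50.4 and 45.7. Right: the number of genes called by edgeR (adjusted p below 0.05) with all 6 libraries and with each left out, higher in OE-F in red and lower in blue; only the fit without OE-F 1 gave more than 5 calls.

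OE-F 1 can be read against the genes called without it, since it took no part in choosing them, although all 3 OE-F values are set against the same CON-F libraries. Over the 3265 genes called higher without OE-F 1, the median log2 difference was 0.06 in OE-F 1, 0.55 in OE-F 2 and 0.54 in OE-F 3. Over the 3579 called lower it was -0.04, -0.62 and -0.59. OE-F 1 lay inside the range of the 3 CON-F libraries for 38.7% of the first set and 39.4% of the second. It lay above the CON-F range for 1301 genes of the first set and below it for 1436 of the second. It lay on the other side of the CON-F range for 701 genes of the first set and 733 of the second. Over all 15103 genes OE-F 1 lay above the CON-F range for 4341 and below it for 4234. Where OE-F 1 left the CON-F range in these sets, it was thus more often on the side of the call. The CON-F libraries that set this range also helped to choose the genes, which can add to this lean, and their part was not tested. For most genes of both sets OE-F 1 was inside the range or on the other side. Its median shift was far smaller than in OE-F 2 and 3.

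A second view counts the genes for which all 3 OE-F libraries lay outside the CON-F range on the same side. There were 1867 with every OE-F library above every CON-F library, 12.4% of all genes, and 1856 with every OE-F library below, 12.3%. OE-F 1 was the OE-F library nearest to the controls in 74.4% of the first set and 80.3% of the second. The higher genes made up 50.1% of both sets together under TMM scaling, 39.2% with no scaling factor and 41.2% on the deposited FPKM, so the balance of directions depends on the scale. Counts below of group members above or below all controls are to be read beside these 12.4% and 12.3% of all genes. None of the other genes named below was called with all 6 libraries. Some examples of a group come from a set rule that takes the 2 members with the highest mean CPM in CON-F, and the genes with the widest gap at a mean of 5 CPM or more, like the further members of the groups, were chosen after their values were seen.

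Among genes above the controls in all 3 OE-F libraries, the widest gap after Dnmt3l at this level, leaving out predicted gene models, was that of Pcdhga1. It is a variable exon gene of the gamma protocadherin cluster on chromosome 18, whose products are adhesion molecules that give neurons distinct surface identities. CON-F measured 10.6, 10.38 and 8.45 CPM and OE-F 20.7, 28.4 and 30.5 CPM. OE-F 1 was the lowest of the 3 but still well above the highest control, and the log2 difference was 1.44 ± 0.19 with an edgeR adjusted p of 0.0727. Abca7, a lipid transporter of the ABC family that is a risk gene for Alzheimer's disease, measured 19.9, 16.7 and 20.7 CPM in CON-F and 31.2, 38.9 and 45.97 CPM in OE-F. Its log2 difference was 1.02 ± 0.17 (edgeR adjusted p 0.206). Galnt9, a brain enzyme that starts mucin-type O-glycosylation, was even across the OE-F libraries. CON-F measured 71.1, 64.2 and 72.9 CPM and OE-F 106, 104 and 109 CPM, so OE-F 1 did not differ from OE-F 2 and 3 beyond their spread. Chrdl1, a secreted antagonist of bone morphogenetic proteins that astrocytes release, was also even, at 10.5, 11.7 and 11.7 CPM against 17.2, 17.5 and 17.6 CPM.

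Hdac7, a class IIa histone deacetylase, measured 28.2, 27.1 and 24.0 CPM in CON-F and 39.6, 47.8 and 45.3 CPM in OE-F. Mettl17, a mitochondrial protein of the methyltransferase-like family that acts in assembly of the mitochondrial ribosome, measured 12.4, 10.5 and 11.3 CPM against 18.3, 21.95 and 21.0 CPM. Both kept every OE-F library above every CON-F library, with log2 differences of 0.74 ± 0.13 and 0.84 ± 0.15. Col7a1, a collagen of anchoring fibrils, stood higher in OE-F 2 and 3 (8.40 and 8.03 CPM) than in OE-F 1 (4.23 CPM), and CON-F measured 2.15, 2.52 and 1.47 CPM. Disp3, a transmembrane protein with a sterol-sensing domain, went from 31.0 to 36.3 CPM in CON-F to 49.4, 77.6 and 68.5 CPM in OE-F 1 to 3. With no floor on CPM, the widest gaps upward belonged mostly to predicted genes and pseudogenes with few reads. Of these, Gm20689, Gm44054, Gm11517, Gm4248 and Gm11414 were at 0 in all 3 CON-F libraries and at 0.35 CPM or less in each OE-F library, levels of a few counts that give no reliable fold.

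Among genes below the controls in all 3 OE-F libraries, Vill followed Dkkl1. It encodes villin-like, a member of the villin family of actin-binding proteins, and measured 6.92, 5.88 and 8.21 CPM in CON-F and 1.02, 1.61 and 1.86 CPM in OE-F. OE-F 1 was the lowest of all 6, and the log2 difference was -2.23 ± 0.28 (edgeR adjusted p 0.0727). Maob, the X-linked monoamine oxidase of the outer mitochondrial membrane that breaks down phenylethylamine and dopamine, measured 14.0, 16.7 and 17.8 CPM in CON-F. In OE-F it measured 6.62, 5.42 and 6.52 CPM, a log2 difference of -1.38 ± 0.17 (edgeR adjusted p 0.0727). Tspyl3, of the testis-specific protein Y-encoded-like family, measured 22.7, 28.1 and 18.4 CPM against 8.89, 6.06 and 7.64 CPM, a log2 difference of -1.61 ± 0.21 (edgeR adjusted p 0.0727). For all 3 genes OE-F 1 lay with OE-F 2 and 3 and away from the controls.

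**Figure D2:**
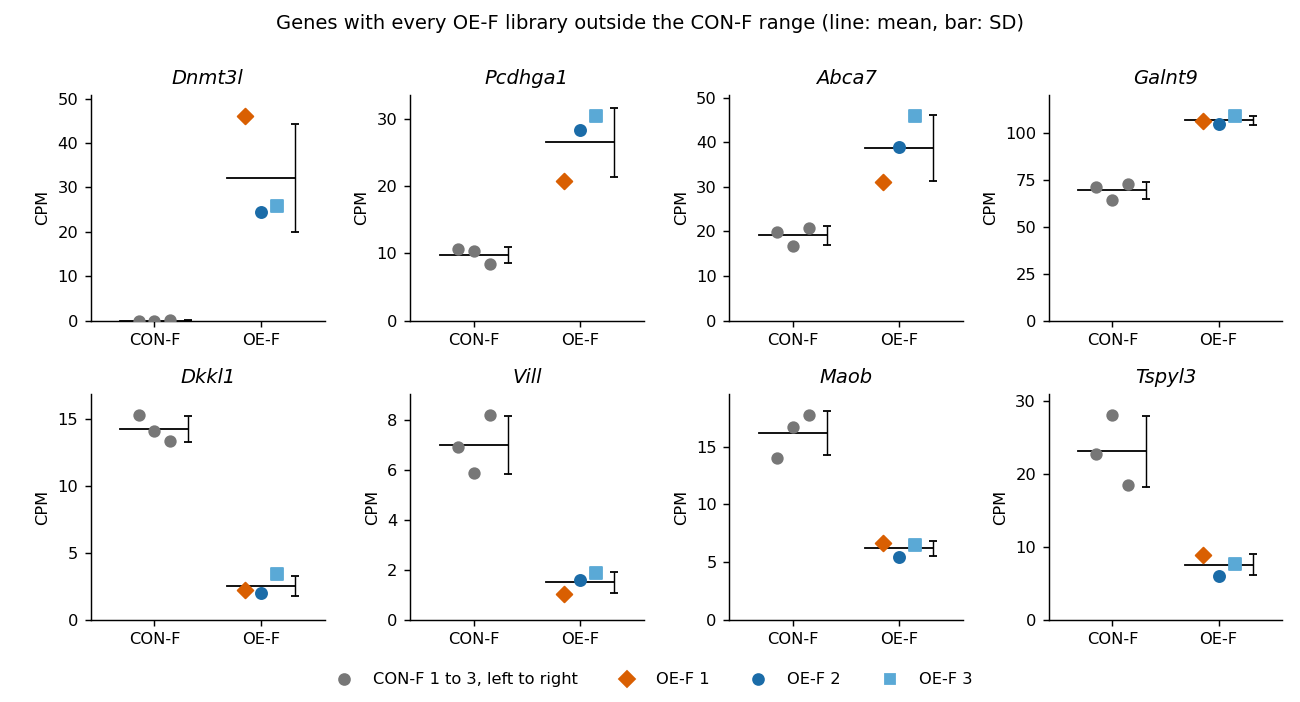
CPM (vertical axis, linear from 0) of 8 genes for which every OE-F library lies outside the CON-F range, 1 point per library; lines are means and bars the SD of 3 libraries. OE-F 1 (diamond) lies with OE-F 2 and 3 in each panel, and for Dnmt3l it is the highest library, at 46.2 CPM.

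Etnppl, an astrocyte-enriched lyase that degrades phosphoethanolamine, measured 16.8, 21.2 and 23.9 CPM in CON-F and 9.25, 8.22 and 6.99 CPM in OE-F, a log2 difference of -1.34 ± 0.19 (edgeR adjusted p 0.0901). Phyh, the peroxisomal enzyme that starts the breakdown of phytanic acid, measured 44.6, 41.5 and 44.8 CPM against 25.2, 18.2 and 16.7 CPM. Ldhd, the mitochondrial D-lactate dehydrogenase, measured 7.53, 7.197 and 7.05 CPM against 2.98, 2.11 and 3.89 CPM. Every OE-F library lay below the controls for Etnppl, Phyh and Ldhd. Thbs4, a secreted thrombospondin, measured 12.6, 13.7 and 12.8 CPM in CON-F, and OE-F 1 was its lowest library at 2.59 CPM, below OE-F 2 at 7.44 and OE-F 3 at 4.27 CPM. Further genes of this set were Rab26, a small GTPase of secretory vesicles, with 15.9 to 17.3 CPM in CON-F and 8.85 to 9.83 CPM in OE-F, and Lmo3, a LIM-only transcriptional cofactor, with 75.8 to 95.3 CPM against 46.6 to 55.2 CPM.

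DNA methylation in mammals falls mostly on cytosines followed by guanine, and the stretch before the transcription start is where it is best known to accompany silencing. Methylation was not measured here. The 250 bases before the outermost listed start are shown for 4 of these genes, to set their CG content side by side: Mettl17 and Hdac7 as the higher genes and Phyh and Etnppl as the lower ones. They were picked, after their values were seen, from the genes with the smallest p-values whose RefSeq promoter lies wholly outside the gene, and not all such genes are shown. The sequences are those of RefSeq on GRCm38.p6, on the strand of the gene, with each CG in capitals: chr14:51884592-51884841 (plus strand) for Mettl17, chr15:97844503-97844752 (minus) for Hdac7, chr2:4918746-4918995 (plus) for Phyh and chr3:130617198-130617447 (plus) for Etnppl.
Mettl17: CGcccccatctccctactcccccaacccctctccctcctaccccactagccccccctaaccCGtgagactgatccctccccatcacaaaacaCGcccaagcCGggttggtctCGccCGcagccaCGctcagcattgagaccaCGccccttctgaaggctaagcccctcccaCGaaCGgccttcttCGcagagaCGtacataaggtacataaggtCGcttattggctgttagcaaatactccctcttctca
Hdac7: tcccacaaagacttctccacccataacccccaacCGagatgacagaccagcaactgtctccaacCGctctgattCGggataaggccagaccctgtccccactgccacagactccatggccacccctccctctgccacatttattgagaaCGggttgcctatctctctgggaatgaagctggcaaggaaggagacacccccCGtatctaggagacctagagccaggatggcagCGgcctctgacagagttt
Phyh: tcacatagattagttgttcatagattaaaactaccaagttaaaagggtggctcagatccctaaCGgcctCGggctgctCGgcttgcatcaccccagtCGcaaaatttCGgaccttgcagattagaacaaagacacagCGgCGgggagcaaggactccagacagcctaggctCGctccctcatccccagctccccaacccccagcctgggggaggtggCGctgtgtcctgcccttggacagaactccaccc
Etnppl: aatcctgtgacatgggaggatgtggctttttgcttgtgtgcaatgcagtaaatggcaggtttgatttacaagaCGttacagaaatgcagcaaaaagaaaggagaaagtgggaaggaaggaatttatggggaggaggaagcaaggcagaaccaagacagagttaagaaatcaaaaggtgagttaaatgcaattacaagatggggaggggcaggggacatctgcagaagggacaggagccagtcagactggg
The letters CG, which read the same on both strands, occurred 13 times before Mettl17, 6 times before Hdac7, 9 times before Phyh and 1 time before Etnppl. Across 27025 RefSeq promoters the same window held a median of 6, and 91.7% held at least 1. Among the genes tested that have a RefSeq promoter the median was 15, and all 4 windows lie below it. A RefSeq promoter was matched for only 73.9% of the genes tested. The share was 69.7% of those with every OE-F library above the controls and 80.7% of those with every OE-F library below. A comparison of CG content between the higher and lower genes is therefore void, and the 4 windows stand for neither set.

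Clustered protocadherins, the family of Pcdhga1, are adhesion proteins of neuronal surfaces whose promoters are chosen in each cell with the help of DNA methylation. All 57 listed members were tested, and their median log2 difference was 0.49, beside 0.01 for all genes. By library it was 0.16 in OE-F 1, 0.65 in OE-F 2 and 0.55 in OE-F 3. Every OE-F library lay above every CON-F library for 29 of the 57 (12.4% of all genes) and below for 1. None was called with all 6 libraries, 37 had a higher value at an unadjusted p under 0.05 in edgeR, and 49 were called higher without OE-F 1 (21.6% of all genes were). Pcdhb17 measured 24.5, 25.4 and 24.5 CPM in CON-F and 34.4, 38.5 and 38.7 CPM in OE-F, and Pcdhgb4 measured 20.5, 21.3 and 21.9 CPM against 27.6, 44.1 and 38.4 CPM. Pcdhgc5, one of the C-type genes at the end of the gamma cluster, overlapped between groups at 290 to 335 CPM in CON-F and 304 to 363 CPM in OE-F, and its direction turned without OE-F 3 and in the fit on log2 FPKM. Pcdhgc3, of the same type, measured 123, 138 and 128 CPM against 144, 221 and 298 CPM. Isoforms of a cluster share their last exons, and with the division of reads between them not given in the sources used here, values of single members are uncertain.

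**Figure D3:**
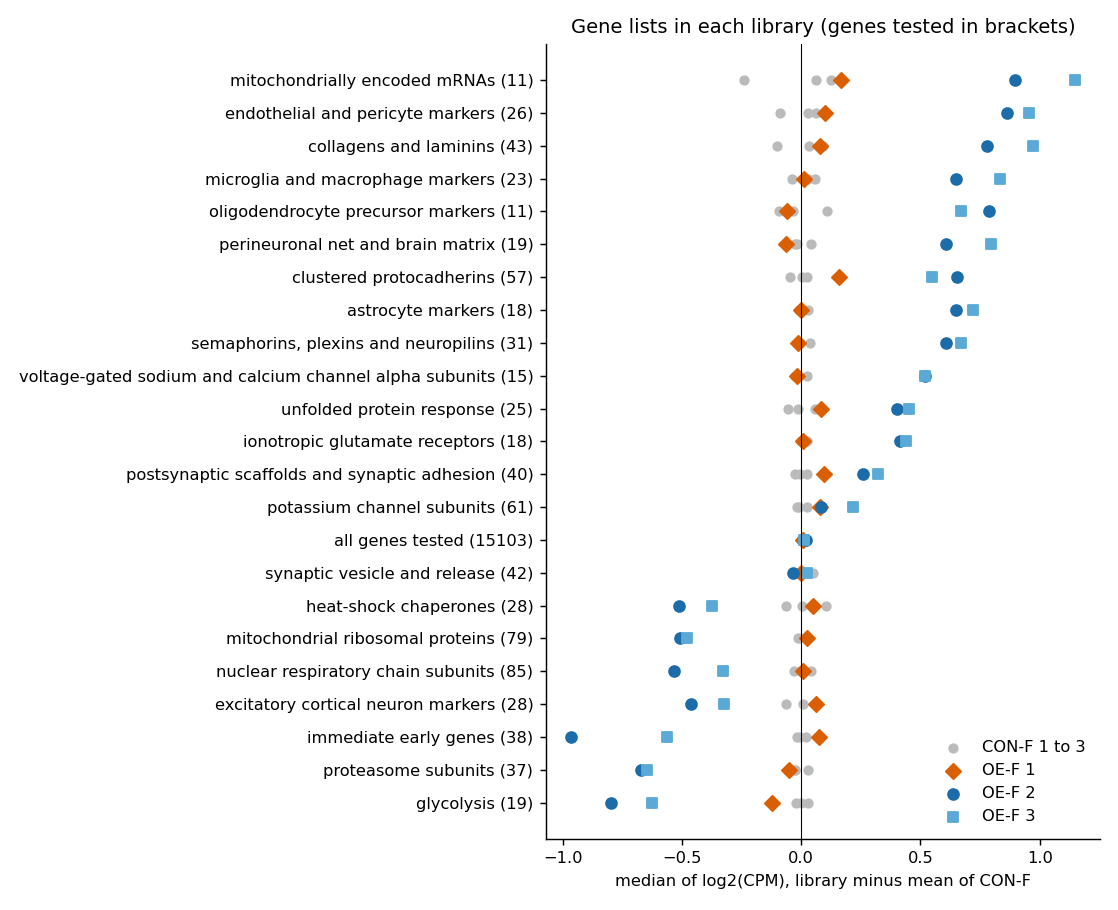
Median of log2 CPM over a selection of the gene groups, with the number of genes tested in brackets. Each library is shown minus the mean of the 3 CON-F libraries (horizontal axis). Among the groups drawn, OE-F 1 (diamond) lies between -0.12 (glycolysis) and 0.17 (mitochondrially encoded mRNAs). It is outside the CON-F points for some of them, such as clustered protocadherins (0.16). Some groups that are not drawn lay further away in OE-F 1. Examples are red blood cell genes (-1.64), striatal neuron markers (-1.38), choroid plexus and ependymal markers (-0.91) and myelin genes (-0.34). OE-F 2 and 3 lie together to the right for matrix, vessel and glial groups and to the left for glycolysis and proteasome genes.

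Postsynaptic scaffolds and synaptic adhesion molecules had a median log2 difference of 0.21 over 40 genes, with OE-F 1 to 3 at 0.09, 0.26 and 0.32. All OE-F libraries lay above the controls for 13 of the 40 and below for 4. Shank1, a scaffold of the postsynaptic density, measured 1945, 1750 and 1592 CPM in CON-F and 2216, 2356 and 2591 CPM in OE-F. Camk2a, the kinase subunit of long-term potentiation, measured 3561, 3435 and 3257 CPM against 4079, 4445 and 4970 CPM. Its partner subunit Camk2b lay the other way, at 809, 876 and 790 CPM against 668, 609 and 651 CPM, with no overlap. For each of these 3 genes OE-F 1 was outside the CON-F range on the same side as OE-F 2 and 3, and none was called (edgeR adjusted p 0.206 for each).

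The synaptic vesicle and release group showed no common shift, with a median of -0.09 over 42 genes. Every OE-F library lay above the controls for 6 (12.4% of all genes) and below for 3 (12.3% of all genes). Bsn, which encodes the active zone scaffold bassoon, measured 1480, 1349 and 1357 CPM in CON-F and 1801, 1843 and 2004 CPM in OE-F. Snap25, a SNARE protein of vesicle fusion, measured 1616, 1554 and 1582 CPM in CON-F. OE-F 1 was higher than all controls at 1895 CPM, and OE-F 2 and 3 were far lower, at 611 and 585 CPM. Nsf, the ATPase that takes SNARE complexes apart, measured 815, 837 and 893 CPM in CON-F and 767, 431 and 407 CPM in OE-F. Without OE-F 1 the edgeR log2 differences were -1.41 for Snap25 and -1.02 for Nsf, and both were called.

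The 18 tested ionotropic glutamate receptor genes had a median log2 difference of 0.30, with 0.01, 0.41 and 0.44 in OE-F 1 to 3. Every OE-F library lay above the controls for 3 of them (12.4% of all genes), a share near that of all genes, and 16 were called higher without OE-F 1 (21.6% of all genes). Grin2b, an NMDA receptor subunit, measured 2488, 2356 and 2314 CPM in CON-F and 2300, 3000 and 2948 CPM in OE-F. Grin1, the obligatory NMDA receptor subunit, did not overlap, at 762, 773 and 713 CPM against 796, 989 and 1118 CPM. The 15 pore-forming subunits of sodium and calcium channels had a median of 0.38 and 5 members above the controls in every OE-F library. Cacna1g, a low-threshold T-type calcium channel, was among the few with OE-F 1 beside the others, at 113, 108 and 120 CPM in CON-F and 159, 161 and 190 CPM in OE-F. Potassium channel subunits had a median of 0.14 over 61 genes, with 0.08, 0.08 and 0.22 in OE-F 1 to 3. Of the 61, 12 lay above all controls (12.4% of all genes) and 1 below (12.3% of all genes). GABA receptors had a median of 0.09 over 15 genes, with 2 above (12.4% of all genes) and 1 below (12.3% of all genes).

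Vessel, glial and matrix genes stood higher in OE-F 2 and 3 than in the controls and OE-F 1. The 26 endothelial and pericyte markers had a median log2 difference of 0.66, with 0.10 in OE-F 1, 0.86 in OE-F 2 and 0.95 in OE-F 3. None was below all controls, 11 were above in every OE-F library (12.4% of all genes), and 25 were called higher without OE-F 1 (21.6% of all genes). Their summed level was 724 to 782 CPM in CON-F, 765 CPM in OE-F 1, and 1359 and 1327 CPM in OE-F 2 and 3. Kdr, the main VEGF receptor of endothelium, measured 24.7, 24.3 and 18.8 CPM in CON-F and 27.2, 55.3 and 58.6 CPM in OE-F. Cldn5, the tight junction claudin of the blood-brain barrier, measured 14.2, 10.7 and 12.01 CPM against 16.2, 26.0 and 26.5 CPM. OE-F 1 was just above the CON-F range for both genes.

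Collagens and laminins, which build basement membranes, had a median of 0.64 over the 43 tested of 55 listed. Of the 43, 15 lay above all controls (12.4% of all genes) and 1 below (12.3% of all genes). Col4a1, a main chain of basement membrane collagen, measured 73.1, 75.1 and 76.7 CPM in CON-F and 94.5, 189 and 222 CPM in OE-F. Proteoglycans and link proteins of perineuronal nets and brain matrix had a median of 0.53 over 19 genes. Of the 19, 4 lay above all controls (12.4% of all genes). Tnr, which encodes tenascin-R, measured 439, 433 and 444 CPM against 474, 723 and 715 CPM. Ncan, which encodes neurocan, overlapped through OE-F 1, at 507 to 590 CPM in CON-F and 538, 816 and 1078 CPM in OE-F. Semaphorins, plexins and neuropilins, a guidance system of growing axons, had a median of 0.44 over 31 genes, with 11 above and none below all controls. Epha10, a receptor of the related Eph family, was even across OE-F, at 52.7 to 55.1 CPM against 67.7, 73.2 and 74.9 CPM.

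Microglia and macrophage markers had a median of 0.56 over 23 genes, with 9 above all controls (12.4% of all genes) and 21 called higher without OE-F 1 (21.6% of all genes). Csf1r, the receptor on which microglia depend, measured 78.0, 86.6 and 85.5 CPM in CON-F and 87.0, 146 and 164 CPM in OE-F. Astrocyte markers had a median of 0.48 over 18 genes, 0.00 in OE-F 1, 0.65 in OE-F 2 and 0.72 in OE-F 3, and they did not all share a direction. Slc1a2, the main glutamate transporter of astrocytes, measured 5662, 5432 and 5569 CPM in CON-F and 5817, 8864 and 9962 CPM in OE-F. Aldh1l1, a folate enzyme widely used to mark astrocytes, was lower in every OE-F library, at 50.6, 47.2 and 48.0 CPM against 36.9, 34.7 and 39.5 CPM. Oligodendrocyte precursor markers had a median of 0.53 over 11 genes, and none separated all 3 OE-F libraries from the controls. Gpr17, a receptor of cells maturing into oligodendrocytes, measured 85.7, 95.6 and 86.4 CPM in CON-F and 86.2, 194 and 209 CPM in OE-F. Myelin genes had a median of 0.18 over 25 genes, which turned to -0.05 without OE-F 3. By library the median was -0.34, 0.22 and 0.52 in OE-F 1 to 3, beside 0.05, 0.16 and -0.21 in CON-F 1 to 3.

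The 11 tested mitochondrially encoded mRNAs had a median log2 difference of 0.76, with 0.17, 0.89 and 1.15 in OE-F 1 to 3, and 5 above all controls. mt-Nd2, a subunit of respiratory complex I, measured 1650, 1652 and 1271 CPM in CON-F and 1916, 3573 and 3571 CPM in OE-F. The 85 tested respiratory chain subunits of the nuclear genome had a median of -0.28, with 1 above and 20 below all controls. Ndufs5, another complex I subunit, measured 52.6, 58.5 and 46.5 CPM against 41.8, 24.8 and 28.9 CPM. Mitochondrial ribosomal proteins had a median of -0.27 over 79 genes. Of the 79, 2 lay above all controls (12.4% of all genes) and 13 below (12.3% of all genes).

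Proteasome subunits had a median of -0.43 over 37 genes, with none above and 16 below all controls, and 34 called lower without OE-F 1 (23.7% of all genes were). Psmb6, a catalytic subunit, measured 46.3, 50.2 and 49.7 CPM in CON-F and 38.3, 23.8 and 26.6 CPM in OE-F. Glycolysis genes had a median of -0.51 over 19 gene entries, with 1 above and 9 below. Gapdh measured 1837, 2041 and 1853 CPM in CON-F and 1625, 920 and 1029 CPM in OE-F, and Aldoa, the aldolase of muscle and brain, measured 778, 852 and 825 CPM against 724, 347 and 397 CPM. For Psmb6, Gapdh and Aldoa, OE-F 1 lay below every control but closer to them than to OE-F 2 and 3. Cytosolic heat-shock chaperones and their relatives had a median of -0.25 over 28 genes, while unfolded protein response genes of the endoplasmic reticulum had 0.31 over 25. Calr, a calcium-binding chaperone of the reticulum, measured 406, 411 and 404 CPM in CON-F and 447, 748 and 806 CPM in OE-F. Hspa8, the constitutive cytosolic chaperone, overlapped through OE-F 1, at 1724 to 1925 CPM against 1862, 1196 and 1383 CPM.

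Cholesterol synthesis genes had a median of 0.06 over 22 genes, a sign that turned in the fit on log2 FPKM (-0.02) and without CON-F 3 or OE-F 3. Every OE-F library lay below all controls for 5 of the 22 (12.3% of all genes) and above for none (12.4% of all genes). Fdps, the synthase of farnesyl diphosphate, measured 45.0, 52.9 and 42.6 CPM in CON-F and 31.2, 27.2 and 31.5 CPM in OE-F, with OE-F 1 beside the others.

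Immediate early genes, which neuronal activity switches on within minutes, differed among the OE-F libraries. Their median log2 difference was -0.37 over 38 genes, with 0.07 in OE-F 1, -0.96 in OE-F 2 and -0.56 in OE-F 3. Fos, a classic marker of recent activity, measured 49.1, 49.4 and 40.3 CPM in CON-F and 44.0, 7.49 and 22.5 CPM in OE-F. Arc, a regulator of glutamate receptor traffic, measured 417, 391 and 429 CPM against 580, 146 and 492 CPM, so only OE-F 2 was below the controls. Jun, a partner of Fos in the AP-1 factor, was lower in all 3 OE-F libraries, at 61.3, 56.4 and 51.3 CPM against 41.6, 36.8 and 42.7 CPM. Nptx2, a secreted protein that gathers AMPA receptors at synapses, was higher in all 3, at 46.02, 43.8 and 58.7 CPM against 65.5, 80.5 and 91.9 CPM.

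Excitatory cortical neuron markers had a median of -0.29 over 28 genes, of which 7 had a positive difference. Of the 28, 2 lay above all controls (12.4% of all genes) and 5 below (12.3% of all genes). Their summed level overlapped, at 9169, 8948 and 8537 CPM in CON-F and 9590, 8439 and 9018 CPM in OE-F. The 2 most abundant members had positive log2 differences, 0.40 for Camk2a (every OE-F library above the controls) and 0.24 for Slc17a7 (with overlap). Bcl11b, a transcription factor of deep-layer projection neurons that striatal neurons also express, measured 147, 194 and 207 CPM in CON-F and 117, 111 and 138 CPM in OE-F. Neurod6, a factor of postmitotic pyramidal neurons, measured 92.8, 89.6 and 92.8 CPM against 77.0, 38.5 and 30.0 CPM. Interneuron markers had a median of -0.11 over 27 genes, which turned to 0.12 without OE-F 1, and members lay on both sides. Gad1, an enzyme that makes GABA, measured 243, 243 and 272 CPM in CON-F and 217, 139 and 146 CPM in OE-F. Vip, a neuropeptide of disinhibitory interneurons, measured 18.95, 17.2 and 22.1 CPM against 26.4, 27.4 and 23.7 CPM, and Calb2, a calcium-binding protein of related cells, measured 9.17, 13.8 and 16.3 CPM against 7.33, 6.89 and 5.87 CPM. Pvalb, the calcium buffer of fast-spiking interneurons, was highest of all in OE-F 1, at 31.9 CPM against 19.3 to 26.6 CPM in CON-F, and low in OE-F 2 and 3, at 6.61 and 8.59 CPM.

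**Figure D4:**
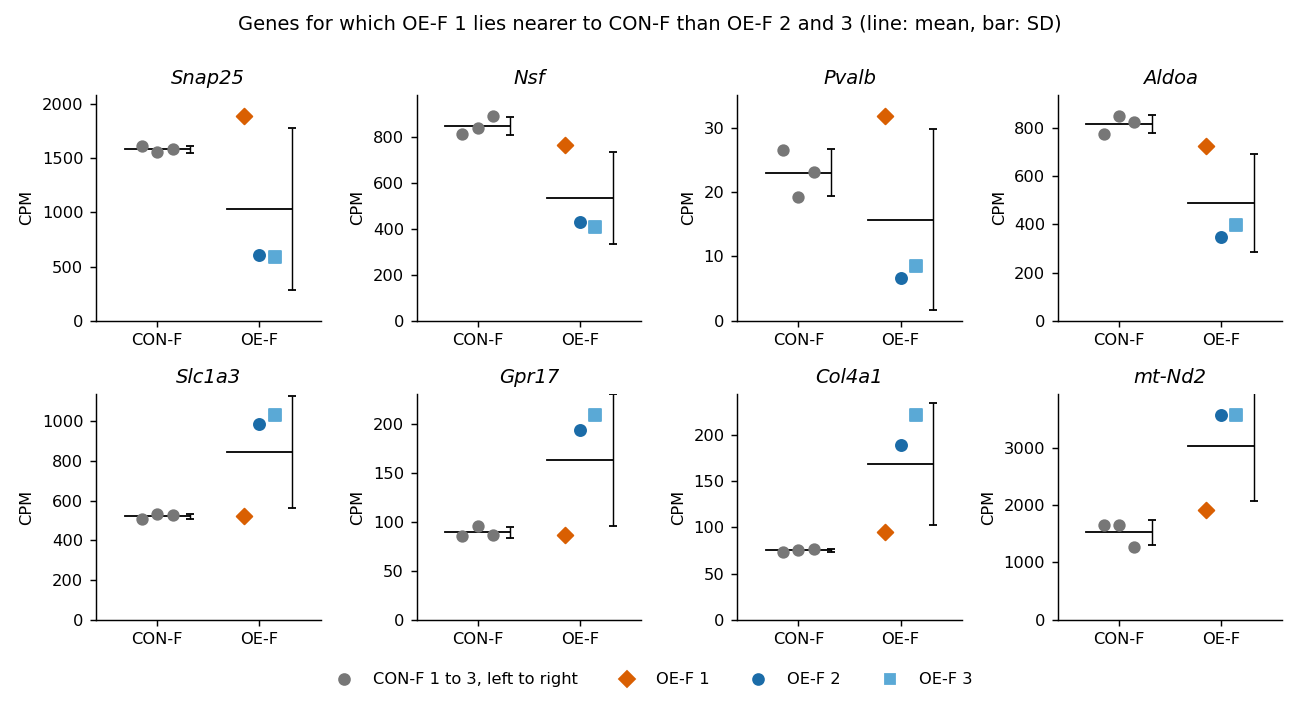
CPM (vertical axis, linear from 0) of 8 genes for which OE-F 1 (diamond) lies nearer to the CON-F libraries than OE-F 2 and 3 do; lines are means and bars the SD of 3 libraries. Snap25 at 1895 CPM and Pvalb at 31.9 CPM are higher in OE-F 1 than in any control and low in OE-F 2 and 3.

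The 36 tested genes of DNA methylation and its readers, Dnmt3l among them, had a median log2 difference of -0.03. Of the 36, 2 lay above all controls (12.4% of all genes) and 5 below (12.3% of all genes). Without OE-F 1, 5 of them were called higher and 11 lower (21.6% and 23.7% of all genes). Dnmt3a, the de novo methyltransferase of neurons, overlapped between groups at 201, 186 and 172 CPM in CON-F and 179, 205 and 263 CPM in OE-F. Dnmt1, which maintains methylation after replication, measured 58.8 to 59.8 CPM in CON-F and 54.9 to 60.2 CPM in OE-F. Dnmt3b did not reach the level required for the test. Gadd45g, a stress gene linked to active demethylation, was lower in each OE-F library, at 16.1, 19.4 and 15.7 CPM against 11.7, 9.64 and 10.5 CPM. Mbd6, of the methyl-CpG-binding domain family, was higher in each, at 35.1, 31.2 and 29.6 CPM against 39.8, 49.6 and 65.3 CPM.

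Imprinted genes, whose parental marks need DNMT3L in the maternal germ line, had a median of -0.10 over the 36 tested of 52 listed. The median turned to 0.01 without OE-F 1. Of the 36, 3 lay above all controls (12.4% of all genes) and 7 below (12.3% of all genes). Ndn, a paternally expressed gene of neurons, measured 111, 131 and 141 CPM in CON-F and 89.5, 74.3 and 77.5 CPM in OE-F. Of 20 germline genes that promoter methylation silences in the body, only 4 reached the test, and none of these separated the groups. The 9 tested neighbours of Dnmt3l on chromosome 10 had a median of -0.07. Of the 9, 1 lay above all controls (12.4% of all genes) and 2 below (12.3% of all genes). On the X chromosome, 6.87% of 524 genes lay above all controls and 19.7% below, beside 12.4% and 12.3% of all genes. The median log2 differences of its genes were nonetheless small, at -0.05, -0.03 and -0.09 in OE-F 1 to 3. Maob, Dlg3 and Eif2s3x are among those below. The raised Y-linked counts of OE-F 3 stand beside this result, and their part in it was not tested.

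Genes induced by corticosteroids had a median of -0.15 over 18 genes. Of the 18, 4 lay below all controls (12.3% of all genes) and none above (12.4% of all genes). Sgk1, a kinase that glucocorticoids induce, measured 64.3, 78.1 and 67.0 CPM in CON-F and 45.5, 40.9 and 50.4 CPM in OE-F. Errfi1, a feedback inhibitor of the EGF receptor, measured 46.9, 52.2 and 49.4 CPM against 38.04, 26.1 and 27.5 CPM. Circadian clock genes had a median of -0.18 over 19 genes, with 2 below all controls (12.3% of all genes). Dbp, an output factor of the clock, split the controls: CON-F 1 and 2 measured 101 and 107 CPM, CON-F 3 measured 47.0 CPM, and OE-F 1 to 3 measured 40, 41.8 and 55.5 CPM. Receptors for noradrenaline, serotonin and dopamine had a median of 0.11 over 23 genes, with 3 above all controls (12.4% of all genes). Adra1d, an alpha-1 adrenergic receptor, measured 20.4, 20.7 and 24.2 CPM in CON-F and 33.5, 28.1 and 33.7 CPM in OE-F. Drd2, the dopamine receptor of striatal neurons, measured 20.6, 34.2 and 33.6 CPM against 4.51, 4.91 and 37.6 CPM, so OE-F 1 and 2 were low and OE-F 3 was not, as for the striatal markers in sum.

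The female comparison was then set against the male one (OE-M against CON-M, 3 libraries each) by an interaction in a fit of all 12 libraries, which has its own controls in each sex. No gene differed between the sexes at an adjusted p below 0.05 in edgeR, and 1098 did at an unadjusted p under 0.05. In this fit the females had 884 higher and 797 lower calls (5.85% and 5.28% of genes, 11.1% together), and the males 6804, or 45.1%. The larger number is not shown to be a difference in effect. Without OE-F 1 the interaction called 46 genes. Of the 1867 genes with all OE-F libraries above the controls, 72.2% also had all OE-M libraries above theirs, as did 31.5% of all genes, and these shared genes were 28.3% of the male set. For genes below the controls the shares were 81.6%, 32.3% and 31.05%.

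Genes that separated all 3 OE-F libraries had male values on both sides of the call. Dkkl1 had a log2 difference of -2.11 in males (edgeR adjusted p 0.000233), Tspyl3 -1.77 (0.000233), Pcdhga1 1.54 (0.000233), Vill -1.68 (0.000885) and Galnt9 0.55 (0.00125). Maob had -0.76 in males (edgeR adjusted p 0.00188) beside -1.38 in females, with an interaction of -0.63 ± 0.21 that was not called (0.669). Etnppl had -0.37 in males (edgeR adjusted p 0.132) and an interaction of -0.97 ± 0.28 (0.669). Thbs4 had -0.06 in males (edgeR adjusted p 0.856), and its interaction of -1.39 ± 0.37 was not called either (0.669). A difference between the sexes was thus not shown for any of these genes.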

How the data were processed

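Per the file headers the authors deposited expected counts and FPKM per Ensembl transcript (119414 transcripts). Expected counts were summed per gene ID and rounded to whole numbers, and the deposited FPKM served as the filter. The 1774 transcripts without a gene ID held 0.533% to 0.583% of the counts of these 6 libraries and were left out. Named by the submitters' processing notes, beside the build GRCm38, are HISAT2 2.0.1 and HTSeq 0.6.1, as well as cutadapt 1.9.1, bcl2fastq 2.17.1.14, bedtools 2.17.0 and DESeq2. With the counting tool and its use of strand not given in the sources used here, reads of overlapping and antisense genes may not be separated. The 6 libraries were fitted alone in edgeR 4.0.16 (R 4.3.3; TMM scaling, robust quasi-likelihood test, Benjamini-Hochberg over 15103 genes, two-sided), with a common biological coefficient of variation of 0.188 and 4 residual degrees of freedom. The code of the fit was run on simulated counts with a smaller spread than these libraries have and with no library apart from its group. That run does not show how the fit behaves with OE-F 1 apart.

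Alternatives were other scalings and filters, DESeq2 1.42.0, limma 3.58.1 on log2(FPKM + 0.5) or log2(FPKM + 0.1) and with voom library weights, all 12 libraries, a replicate block, and leaving out libraries. Non-overlap counts under other scalings and without single libraries were added after seeing the data. The members and gene lists were chosen with earlier results of these data known. Named genes were Dnmt3l, the called genes, the 10 widest gaps in each direction, the 2 members with the highest mean CPM in CON-F of each list without a call, of which not all are printed, and genes for which OE-F 1 stood apart. The rule asked for a call in the gap sets, and this was dropped after only 2 genes were called. Promoter sequences are those of RefSeq (GRCm38.p6). Intervals cover counting error only.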

Additional observations from a re-analysis of the deposited data

Results flagged for a closer look

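For 2 of the genes named among the groups, every OE-F library lay below every CON-F library while every OE-M library lay above every CON-M library. Coch, which encodes the secreted protein cochlin, measured 24.4, 28.3 and 28.9 CPM in CON-F and 19.12, 20.7 and 23.3 CPM in OE-F. Its log2 difference was -0.37 ± 0.14 in females and 0.42 in males, and the female minus male difference was -0.79 ± 0.18 (edgeR adjusted p 0.669). Tsc22d3, a leucine zipper protein that glucocorticoids induce, measured 45.3, 51.1 and 42.9 CPM in CON-F and 39.8, 37.9 and 34.1 CPM in OE-F. Its log2 difference was -0.32 ± 0.13 in females and 0.21 in males, and the female minus male difference was -0.53 ± 0.14 (edgeR adjusted p 0.669). Neither difference between the sexes passed the test. Over all genes tested, 16 were above in females and below in males in this way, and 16 the reverse.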

How the results depend on the processing

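Dnmt3l was called in all 18 alternatives, with a log2 difference of 5.39 to 12.7, and Dkkl1 in 14 of 18, with -2.80 to -2.35. The count of called genes (1 higher, 1 lower) was the same under 2 other scalings, without mitochondrial genes in the scaling and with edgeR's own filter. It was 5 higher and 7 lower with no filter, 190 and 167 in DESeq2, 884 and 797 with all 12 libraries in the fit, and 3096 and 3316 with limma's library weights, where OE-F 1 had a weight of 0.139 and the others 1.121 to 2.221. With limma on log2 FPKM there were 2 higher genes at a pseudocount of 0.5 and 3 at 0.1. Without both CON-F libraries that hold Alb there were 4 higher and 0 lower, and OE-F is then set against a single control whose spread is taken from the other group. Leaving out each library in turn gave 1 to 3265 higher and 0 to 3579 lower calls. Genes above all controls then numbered 2226 to 4861 and genes below 2153 to 4943. These 2 counts can only stay or grow when a library is left out. The female minus male effect gave 0 to 46 genes. Each upper end was reached without OE-F 1.

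With a replicate block the calls were 3 higher and 5 lower, and 0 for the female minus male effect. The correlations of same-numbered libraries' deviations from their group means were -0.002, 0.022 and -0.097, not every library correlated best with its own number, and the samples thus share only a number. No called gene reversed. With 3 libraries a group and OE-F 1 apart, the fit has little power for changes that OE-F 2 and 3 share, and low-count genes add counting error.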

Other observations

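Among the less abundant genes with a wide gap and no call, chosen after their values were seen, Slc5a5, the sodium iodide symporter, measured 14.6, 15.4 and 12.3 CPM in CON-F and 7.76, 8.45 and 8.11 CPM in OE-F. Tekt5, a tektin of sperm flagella, measured 4.77, 5.99 and 6.09 CPM against 2.04, 2.07 and 2.16 CPM. Thpo, which encodes thrombopoietin, was higher, at 6.75, 6.69 and 6.50 CPM against 9.76, 12.3 and 10.3 CPM. For Slc5a5 and Tekt5 the 3 OE-F libraries lay closer to each other than the CON-F libraries did.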
